A study of Homo sapiens with 9 samples.

Results

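The tissue factor and plasminogen activator system was followed in 786-0 cells through 9 genes, F3, TFPI, TFPI2, PLAU, PLAUR, PLAT, SERPINE2, THBD and PROCR. All 9 were found among the 58735 gene identifiers of the count table. They were chosen from the expression values of these same libraries, so their levels and fold changes in the groups are given as a description, with no test. RNAseq was carried out on 786-0, an established clear cell renal cell carcinoma line without working VHL or HIF1α that keeps HIF2α even at normal oxygen. Parental cells without drug (WT), parental cells kept for 48 h with 10 μM of PT2385, an antagonist of HIF2α (PT2385) and cells with a knockout of HIF2α (KO) were each sequenced in 3 replicates, and all 3 groups were kept at 21% O2 for 48 h in medium with 10% serum. Whether the KO cells are 1 clone is not given in the sources used here, and neither is whether replicates came from separate cultures, so p-values measure only the spread between these samples, which may be technical. Both PT2385 and KO were compared with the same WT libraries.

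Tissue factor, encoded by F3, is the membrane receptor that binds factor VIIa and starts blood coagulation, and it also signals through protease-activated receptors. Its complex is held in check by the Kunitz-type inhibitor TFPI, while thrombomodulin and the endothelial protein C receptor turn thrombin towards activation of protein C. On the fibrinolytic side, urokinase and tissue-type plasminogen activator convert plasminogen to plasmin, which dissolves fibrin and degrades matrix around tumour cells, and serpins inhibit both activators.

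Total counts per library were 11881000, 12296841 and 12055602 in WT, 12209143, 13303063 and 14318384 with PT2385, and 12893484, 14430108 and 14730081 in KO. Levels are in CPM, which are counts scaled to library size with TMM factors, and the factors stayed between 0.988 and 1.02. Up to 3 counts in a library, which is 0.253 CPM at the lowest depth, were taken as the floor of detection, and this floor covers counting error only. EPAS1, which encodes HIF2α and is the gene knocked out, had 271, 265 and 233 CPM in WT, 248, 248 and 219 CPM with PT2385 and 20.3, 24.99 and 21.1 CPM in KO. Its transcript was low in every KO library and fell in KO to 8.73% of WT (log2 fold change -3.52, standard error 0.0963, adjusted p = 2.15e-09), whereas with PT2385 it was not called (-0.11, standard error 0.0746, adjusted p = 0.459). Each PT2385 library was below the WT library of the same replicate number, and with that number as a block the gene was not called either (-0.11, standard error 0.0440, adjusted p = 0.126 in edgeR). The libraries labelled KO thus had a low EPAS1 transcript level, and the libraries of the drug group overlap those of WT. The label names a knockout and no transcript level, and the paper's methods describe siRNA silencing of HIF2α but no knockout line.

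Of 6 markers of kidney tubule and renal carcinoma, 5 were over the floor in at least 1 library, with a summed level between 592 and 699 CPM that came mostly from PAX8. The renal carcinoma marker CA9 had 0 counts in all 9 libraries. Of the 4 kidney markers that could be tested, PAX8 was called in no comparison. PAX2 and MME were called lower with PT2385 (log2 fold changes -0.44 and -1.16, adjusted p = 0.0325 and 0.00841) and in KO against WT (-1.30 and -1.48, adjusted p = 2.84e-05 and 4.80e-04). CDH16 was called higher in KO against WT (1.32, adjusted p = 0.0402), with 9, 7 and 14 counts in WT and 20, 48 and 19 in KO. It reached the low-count filter there through the KO libraries, so its call depends on that selection and is given as a description. In the list of 7 epithelial and mesenchymal markers 6 were over the floor, VIM was the most abundant, the summed level ran from 5446 to 6059 CPM, and CDH1 reached no more than 1 count. Among the 6 tested, those called with PT2385 were KRT8 and KRT18, both higher (log2 fold changes 0.26 and 0.47, adjusted p = 0.0423 and 0.0158), whose exons overlap each other on opposite strands. Called in KO against WT were KRT8, KRT18 and EPCAM, which were higher (0.54, 0.85 and 1.19, adjusted p = 1.01e-04, 4.66e-05 and 4.87e-04), and CDH2, which was lower (-0.22, adjusted p = 0.0287), while VIM and KRT19 were not called. Endothelial markers summed to between 1 and 8 counts per library over 6 genes, with TEK the most abundant and PECAM1, CLDN5 and EMCN at 0. Leukocyte and platelet markers summed to between 0 and 19 counts over 6 genes, nearly all from CD14, with CD3E, PF4 and GP9 at 0. Among 4 hepatocyte markers APOA1 and TTR were at 0, ALB reached 1 count, and SERPINA1 had between 721 and 1315 counts. With the replicate block 4 more markers were called with PT2385, KRT19, VIM and SERPINA1 lower (log2 fold changes -0.16, -0.11 and -0.25, adjusted p = 0.0464, 0.0164 and 0.0111) and CDH2 higher (0.18, adjusted p = 0.00777), against adjusted p of 0.337, 0.252, 0.224 and 0.0652 without it. In KO against PT2385 the markers called lower were PAX2 and CDH2 (log2 fold changes -0.89 and -0.42, adjusted p = 0.00141 and 0.00201), and those called higher were KRT8, KRT18, EPCAM and SERPINA1 (0.26, 0.37, 0.89 and 0.46, adjusted p = 0.0239, 0.0407, 0.00873 and 0.0178).

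A gene was called when its adjusted p was under 0.05 in edgeR's quasi-likelihood test, run on genes that passed a filter on low counts. With PT2385, 1162 of 15089 tested genes were called (7.70%), of which 465 were higher (3.08%) and 697 lower (4.62%). In KO against WT it was 4566 of 15192 genes (30.1%), with 2230 higher (14.7%) and 2336 lower (15.4%). Between KO and PT2385, a comparison without the WT libraries, 2897 of 15402 genes were called (18.8%), 1305 of them higher in KO (8.47%) and 1592 lower (10.3%). Without PT2385 replicate 2 the first count was 574, without WT replicate 2 it was 581, without WT replicate 1 it was 654 and without WT replicate 3 it was 728, and the count between KO and PT2385 was 1836 without PT2385 replicate 2. PT2385 and WT libraries of the same replicate number deviated together from their group means, and with the replicate number as a block 2305 genes were called for PT2385, among them all 1162.

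Of the 9 chosen genes 8 passed the filter, and PLAT was left out by its low counts. Since the genes were picked with these values known, which of them passed a threshold is not given. The median log2 fold change of the 8 genes was 0.12 with PT2385, -0.08 in KO against WT and -0.32 in KO against PT2385, while the medians over all tested genes were 0.00099, 0.0038 and -0.0035.

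F3 (ENSG00000117525, chromosome 1, 94529173 to 94541759, minus strand, GRCh38) was high in every WT library and low in every other library. It had 127, 145 and 143 CPM in WT (138 ± 9.87, SD, n = 3), 16.3, 17.5 and 15.8 CPM with PT2385 (16.6 ± 0.873) and 9.82, 7.29 and 12.3 CPM in KO (9.81 ± 2.51). The 3 groups do not overlap, and every KO library lay below every PT2385 library. The log2 fold change was -3.07 with PT2385 (standard error 0.0822), which leaves 11.9% of the WT level, and -3.80 in KO (standard error 0.137), which leaves 7.17%. Directly compared, KO had 59.3% of the F3 level of PT2385-treated cells (log2 fold change -0.76, standard error 0.171), with a log2 fold change from -0.96 without KO replicate 3 to -0.58 without KO replicate 2. In these bulk libraries fewer cells with a transcript and less of it per cell cannot be told apart.

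The promoter of F3 is shown because it belongs to the gene that differed most from WT in both other groups among the 8 that passed the filter, next to that of PLAUR, whose level overlapped between all groups. Both are RefSeq sequences of GRCh38.p14 from 250 bases before to 50 bases after the start site, on the minus strand, at chr1:94541710-94542009 for F3 and chr19:43670120-43670419 for PLAUR. Capitals mark matches on either strand to the core letters of hypoxia response elements, ACGTG and GCGTG, and to the AP-1 motif TGANTCA.
F3: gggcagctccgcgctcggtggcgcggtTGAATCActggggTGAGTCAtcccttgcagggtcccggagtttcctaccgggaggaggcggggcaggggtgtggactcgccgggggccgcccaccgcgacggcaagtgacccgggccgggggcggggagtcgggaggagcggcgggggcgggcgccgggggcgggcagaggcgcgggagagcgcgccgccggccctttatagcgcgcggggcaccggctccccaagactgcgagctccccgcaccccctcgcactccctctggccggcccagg
PLAUR: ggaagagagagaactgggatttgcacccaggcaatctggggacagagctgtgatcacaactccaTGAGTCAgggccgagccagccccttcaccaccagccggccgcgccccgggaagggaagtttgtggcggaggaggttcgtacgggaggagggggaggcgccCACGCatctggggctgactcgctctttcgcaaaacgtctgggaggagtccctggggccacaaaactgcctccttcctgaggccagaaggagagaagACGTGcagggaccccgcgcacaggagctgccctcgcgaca
The F3 sequence holds 2 matches to TGANTCA, at bases 28 to 34 and 41 to 47, and 0 to ACGTG or GCGTG, while the PLAUR sequence holds 1 match to each of the 3 motifs. Over 35116 promoters of the same length, ACGTG was present in 21.4%, GCGTG in 36.5% and TGANTCA in 7.71%. A promoter sequence was given for 7 of the 9 genes, THBD and PLAT being the others. In the remaining ones TFPI2 had 1 match to TGANTCA, the second start of PLAU had 1 to GCGTG, and SERPINE2 had ACGTG on both strands of the same letters at its first start and GCGTG at its second, whereas TFPI, PROCR and the first start of PLAU had none. A match is a description of these letters and says nothing of binding.

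TFPI and TFPI2, the Kunitz-type inhibitors, did not follow F3. TFPI (ENSG00000003436, chromosome 2, 187464230 to 187565760, minus strand), which inhibits factor Xa and the tissue factor complex, had 135, 128 and 151 CPM in WT, 153, 127 and 120 CPM with PT2385 and 146, 169 and 177 CPM in KO. Its groups overlap in each comparison, with log2 fold changes of -0.05 (standard error 0.0930) for PT2385 and 0.26 (0.0847) for KO against WT and 0.30 (0.103) for KO against PT2385. TFPI2 (ENSG00000105825, chromosome 7, 93885396 to 93890753, minus strand), an inhibitor of plasmin and other serine proteases found in the matrix, had 122, 132 and 155 CPM in WT, 133, 139 and 170 CPM with PT2385 and 102, 93.1 and 132 CPM in KO. Here every KO library lay just below every PT2385 library (log2 fold change -0.43, standard error 0.131), and KO overlapped WT (-0.30, standard error 0.122). Short exon stretches of both genes overlap antisense genes with few reads, CALCRL-AS1 with 46 counts and GNGT1 with 210 over the 9 libraries, against 17156 for TFPI and 15422 for TFPI2.

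Set against its inhibitor, F3 had 94.1, 113 and 94.7 counts per 100 TFPI counts in WT, 10.7, 13.8 and 13.1 with PT2385 and 6.73, 4.32 and 6.97 in KO. Read counts of the initiator and the inhibitor were thus near equal in untreated cells, and in the other groups TFPI counts were several times those of F3 in each library. The ratio is of counts and not of molecules, since the TFPI exons span 11.7 kb and those of F3 2.89 kb.

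**Figure D1:**
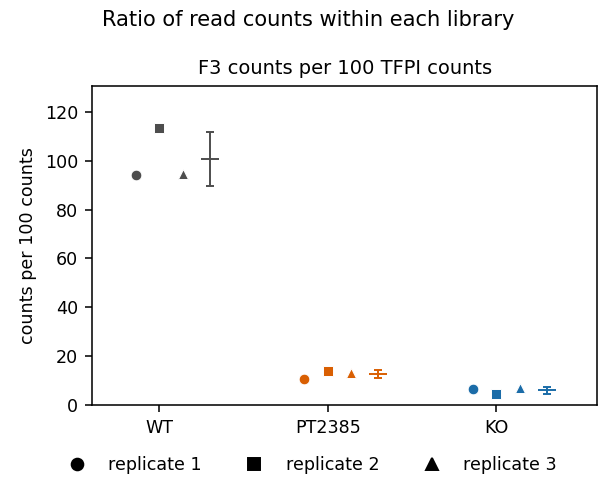
Read counts of F3 per 100 TFPI counts in each library (points, shape by replicate), with the mean ± SD of 3 replicates as bars and a vertical axis that starts at 0. The ratio lies between 94.1 and 113 in WT and is lower in all PT2385 and KO libraries.

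**Figure D2:**
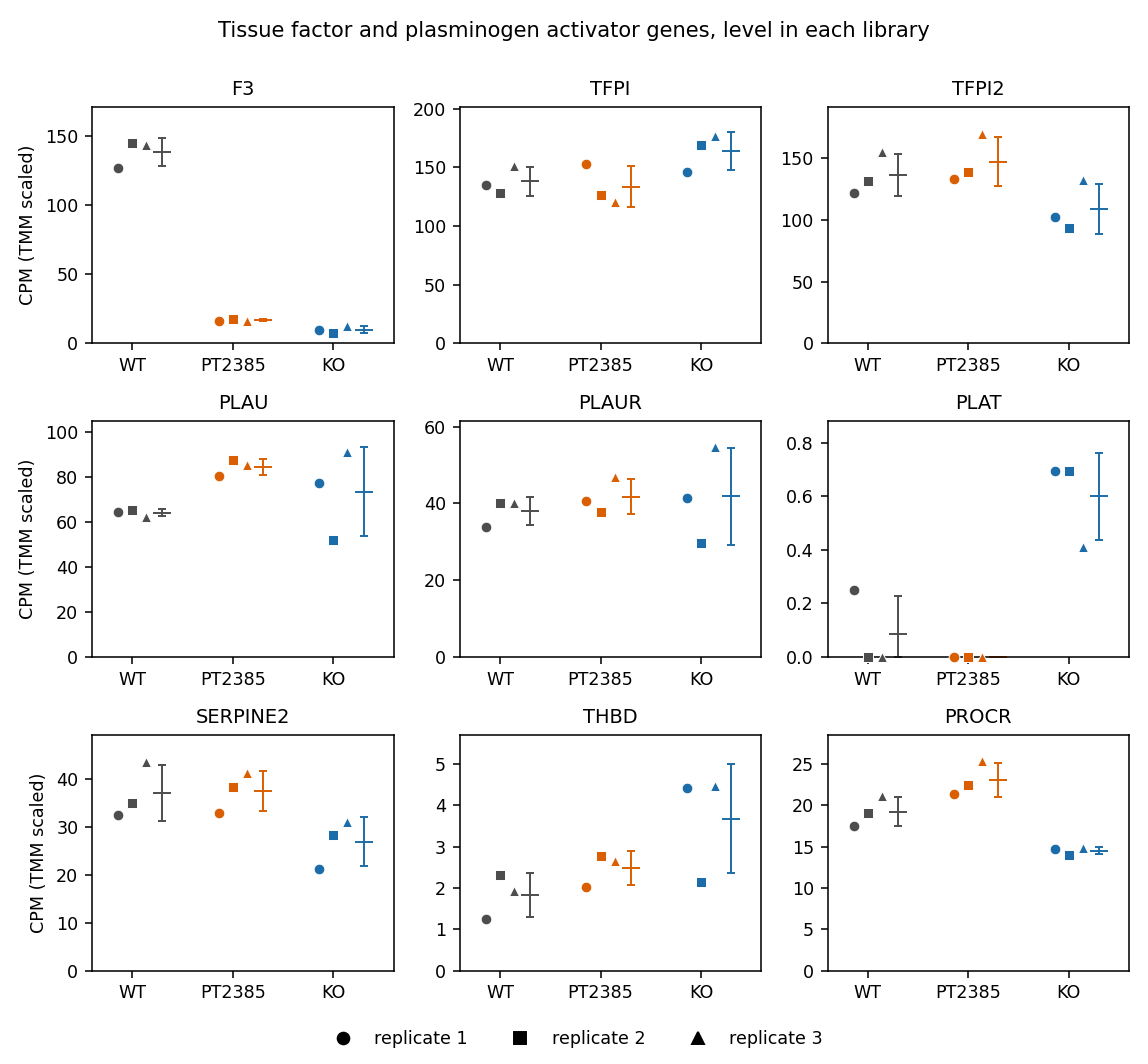
Level of each of the 9 genes in CPM after TMM scaling (vertical axes start at 0 and differ between panels) in WT, PT2385-treated and KO cells. Each point is a library, its shape gives the replicate, and the bar beside it is the mean ± SD of 3 replicates. F3 stands between 127 and 145 CPM in WT and at or under 17.5 CPM elsewhere, and the KO points of PLAU and PLAUR lie far apart.

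PLAU, urokinase, was the more abundant of the plasminogen activators by far. The gene (ENSG00000122861, chromosome 10, 73909177 to 73917496, plus strand) had 64.3, 65.4 and 62.3 CPM in WT (64.0 ± 1.56, SD, n = 3), 80.3, 87.3 and 85.2 CPM with PT2385 (84.3 ± 3.60) and 77.4, 52.0 and 91.0 CPM in KO (73.5 ± 19.8). All PT2385 libraries lay above all WT libraries (log2 fold change 0.39, standard error 0.0655, 1.31-fold), and the KO libraries spread from below WT to above PT2385. The log2 fold change of KO against WT was 0.21 (standard error 0.154) and ran from 0.03 to 0.41 as single libraries were left out. C10orf55 overlaps PLAU on the opposite strand over 915 exon bases, and had 123 counts over all libraries against 8754 for PLAU.

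PLAUR, the urokinase receptor that holds the protease at the cell surface, overlapped between groups in every comparison. The gene (ENSG00000011422, chromosome 19, 43646095 to 43670547, minus strand) had 33.9, 40.1 and 40.2 CPM in WT, 40.7, 37.9 and 46.8 CPM with PT2385 and 41.3, 29.6 and 54.6 CPM in KO. Its log2 fold changes were 0.13 (standard error 0.0987) with PT2385, 0.15 (0.175) in KO against WT and -0.00 (0.181) in KO against PT2385. The last ran from -0.24 without KO replicate 3 to 0.20 without KO replicate 2.

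PLAT, tissue-type plasminogen activator, was close to the limit of detection. The gene (ENSG00000104368, chromosome 8, 42174718 to 42207709, minus strand) had 3, 0 and 0 counts in WT, 0 in each PT2385 library and 9, 10 and 6 counts in KO. All KO libraries thus exceeded the floor of 3 counts and no other library did. Scaled to total counts, the ratio of KO to WT was 7.18, from 25 counts against 3, and the 3 came from 1 WT library. Against PT2385, the 25 counts of KO stand beside 0, and no ratio is given. The summed endothelial markers also differed, with 1, 1 and 2 counts in WT, 1, 1 and 3 with PT2385 and 8, 6 and 6 in KO, most of them TEK. The endothelial markers PECAM1, CLDN5 and EMCN were at 0 in the same KO libraries.

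SERPINE2, protease nexin-1, inhibits thrombin and urokinase. It (ENSG00000135919, chromosome 2, 223975045 to 224039318, minus strand) had 32.4, 35.0 and 43.5 CPM in WT, 32.9, 38.3 and 41.1 CPM with PT2385 and 21.3, 28.3 and 31.0 CPM in KO. Every KO library lay below all libraries of the other groups, with log2 fold changes of -0.44 (standard error 0.143) against WT and -0.48 (0.138) against PT2385, and PT2385 and WT overlapped (0.02, standard error 0.116).

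The endothelial protein C receptor gene PROCR (ENSG00000101000, chromosome 20, 35172072 to 35216240, plus strand) had 17.5, 19.1 and 21.1 CPM in WT, 21.4, 22.5 and 25.4 CPM with PT2385 and 14.7, 14.02 and 14.9 CPM in KO. Its groups stand in the order KO, WT, PT2385 without overlap, although the nearest WT and PT2385 libraries, at 21.1 and 21.4 CPM, nearly meet. The log2 fold change was 0.26 (standard error 0.106) with PT2385, -0.39 (0.107) in KO and -0.67 (0.107) between KO and PT2385.

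Thrombomodulin, the thrombin receptor encoded by THBD (ENSG00000178726, chromosome 20, 23045633 to 23049672, minus strand), had low counts, 15, 28 and 23 in WT, 25, 37 and 38 with PT2385 and 57, 31 and 65 in KO. In CPM these are 1.26, 2.31 and 1.93, then 2.02, 2.77 and 2.66, then 4.41, 2.15 and 4.47. KO replicates 1 and 3 were the highest of all 9 libraries, and KO replicate 2 lay within the WT range, so that no pair of groups is free of overlap. The log2 fold change was 0.44 (standard error 0.272) with PT2385, 1.01 (0.323) in KO against WT and 0.55 (0.291) in KO against PT2385.

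**Figure D3:**
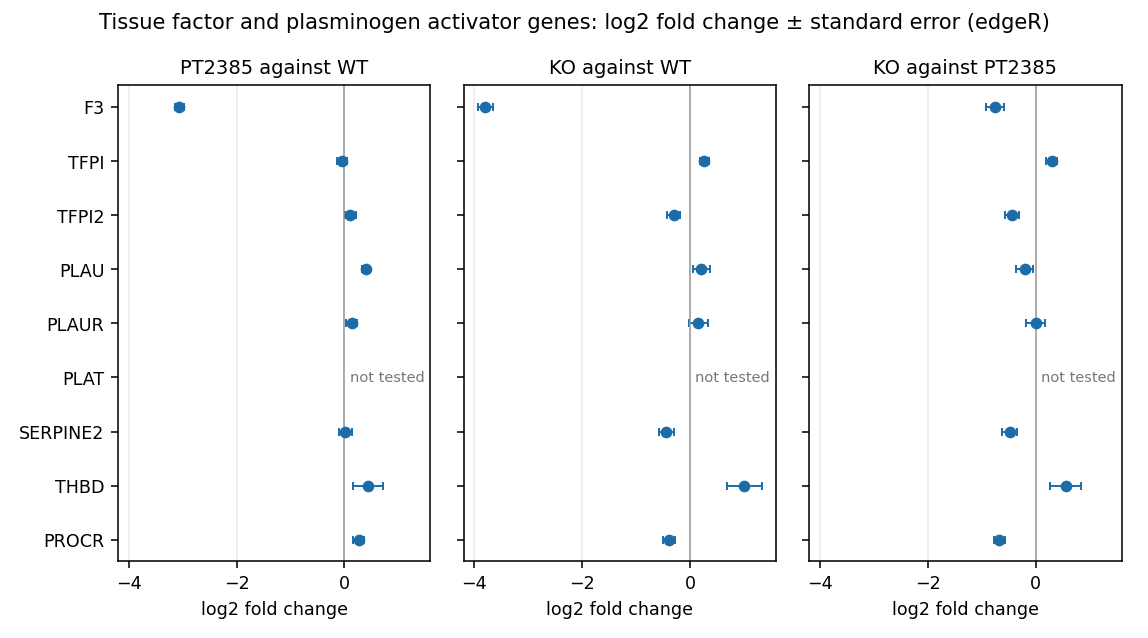
Log2 fold changes of the 9 genes in the 3 comparisons, as points with the standard error from edgeR as bars (horizontal axis, log2 scale, 0 is no difference). PLAT was not tested. F3 lies at -3.07 and -3.80 against WT, and the other genes lie between -0.44 and 1.01 there.

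Replicates of most of these genes were less alike than those of the median gene, in every group, and for low counts such as those of THBD part of this is counting error. The coefficient of variation over the 3 KO libraries was 25.6% for F3, 26.9% for PLAU, 30.0% for PLAUR, 35.9% for THBD, 18.6% for TFPI2, 18.8% for SERPINE2, 9.80% for TFPI and 3.06% for PROCR, with a median of 7.27% over 10140 genes with a mean of at least 100 counts. In WT it was, in the same order, 7.13%, 2.44%, 9.48%, 29.0%, 12.6%, 15.8%, 8.75% and 9.25%, with a median of 5.997%, and with PT2385 5.27%, 4.27%, 10.9%, 16.3%, 13.5%, 11.2%, 13.1% and 8.90%, with a median of 6.996%. F3, PLAU and PLAUR are the genes whose spread in KO stands furthest from that in the other groups. KO replicate 2 was the lowest and KO replicate 3 the highest of the KO libraries for 6 of the 9 genes (F3, TFPI2, PLAU, PLAUR, THBD and PROCR), a pattern that 24.4% of the 10140 genes had. Whether these libraries differ in culture or in handling was not tested.

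Levels of different genes were compared per kilobase of merged exons. In WT the order was TFPI2 (55.8 ± 7.05 CPM per kb, SD, n = 3), F3 (47.9 ± 3.42), PLAU (21.7 ± 0.529), TFPI (11.8 ± 1.03), PROCR (11.3 ± 1.05), PLAUR (8.55 ± 0.810), SERPINE2 (4.13 ± 0.652), THBD (0.453 ± 0.131) and PLAT (0.0108 ± 0.0187). TFPI2 and F3 were closer to each other than their summed SD, as were TFPI and PROCR. F3 moved from place 2 in WT to place 6 in both other groups, with 5.73 ± 0.302 CPM per kb with PT2385 and 3.40 ± 0.871 in KO, where it was within the spread of SERPINE2 (3.00 ± 0.563). TFPI2 and PLAU led the order with PT2385 (60.3 ± 8.11 and 28.6 ± 1.22 CPM per kb) and in KO (44.7 ± 8.32 and 24.9 ± 6.71). PROCR stood next after them with PT2385 (13.6 ± 1.21) and below TFPI and PLAUR in KO (8.56 ± 0.262), where PLAUR (9.39 ± 2.81) was within its own spread of it.

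**Figure D4:**
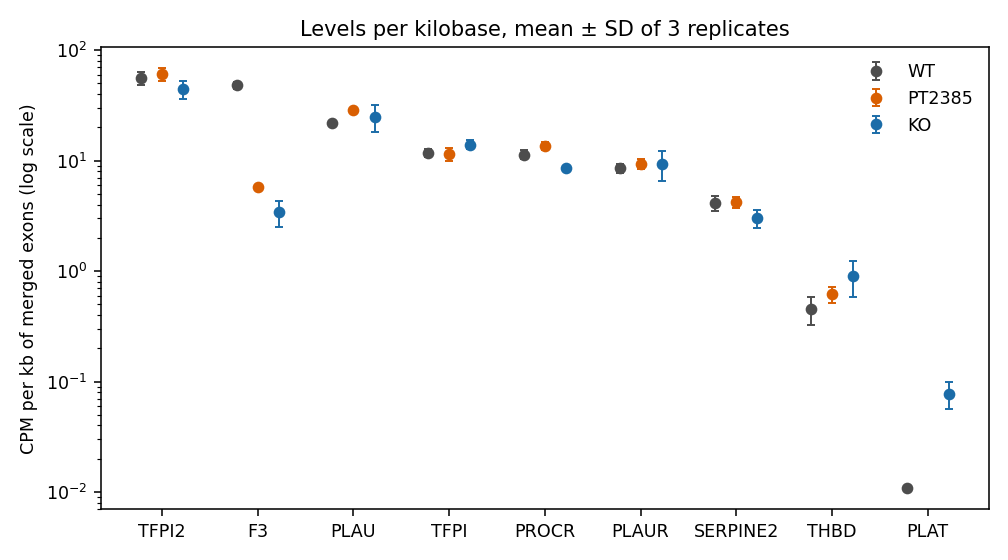
Mean level of each gene in CPM per kb of merged exons (vertical log axis), in order of the WT mean, with bars for the SD of 3 replicates. PLAT has no point with PT2385, where it had 0 counts, and no bar in WT, where the SD exceeds the mean. F3 drops from 47.9 to 5.73 and 3.40 CPM per kb, and the other tested genes stay within a narrower range.

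Genes with the most similar profile over the 9 libraries were sought among 10133 genes with a mean of at least 100 counts, by Pearson's r of log2 CPM. The 9 libraries are 3 groups of 3 replicates, so r mostly follows group means, and no p is given. For F3 they were LPCAT1 (r = 0.998), TSPAN2 (0.996) and POU5F1 (0.994), with mean levels in WT, PT2385 and KO of 498, 199 and 162 CPM for LPCAT1, 32.5, 13.2 and 9.62 CPM for TSPAN2 and 80.6, 17.4 and 12.9 CPM for POU5F1. Each of these genes was highest in WT and lowest in KO, as F3 was. For TFPI they were CUL5 (0.935), SMIM30 (0.930) and ZNF641 (0.912), for TFPI2 BRD9 (0.988), MIS18A (0.986) and UCK2 (0.985), and for PLAU GPSM1 (0.970), GBP1 (0.945) and ADCY7 (0.918). PLAUR had IRAK2 (0.954), RNF19B (0.947) and ENTPD6 (0.944), and SERPINE2 had RAB12 (0.984), HNRNPC (0.966) and KPNB1 (0.960). THBD was closest to MED27 (0.971), JARID2 (0.962) and KDM2A (0.960), and PROCR to NMT1 (0.984), BRI3BP (0.982) and USP13 (0.980). Groups of genes alike in this sense may share nothing but their group means.

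Beyond these genes, lists of 53 others of coagulation and fibrinolysis were examined, of which 24 could be tested in at least 1 comparison and 25 were at or under 3 counts in every library. With PT2385, 2 of 24 tested list genes were called, 1 higher and 1 lower. The 1 called higher was F2RL2, which reached the low-count filter only through the PT2385 libraries. Its calls here and in KO against PT2385 depend on that selection. With the replicate block 8 list genes were called, 4 higher and 4 lower. The block also raised the count over all genes, from 1162 to 2305. In KO against WT, 12 of 23 were called, 3 higher and 9 lower, and in KO against PT2385 9 of 24, 2 higher and 7 lower. Of the tested list genes the median log2 fold change was -0.06 with PT2385, -0.24 in KO against WT and -0.16 in KO against PT2385. With PT2385, 8.33% of tested list genes were called, beside 7.70% of all tested genes. The shares were 52.2% beside 30.1% in KO against WT and 37.5% beside 18.8% in KO against PT2385. The lists were chosen with earlier results of these data known, so nothing is read from these shares, and nothing particular to the list was tested. These counts are over the whole list, and not every gene in them is named here.

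**Figure D5:**
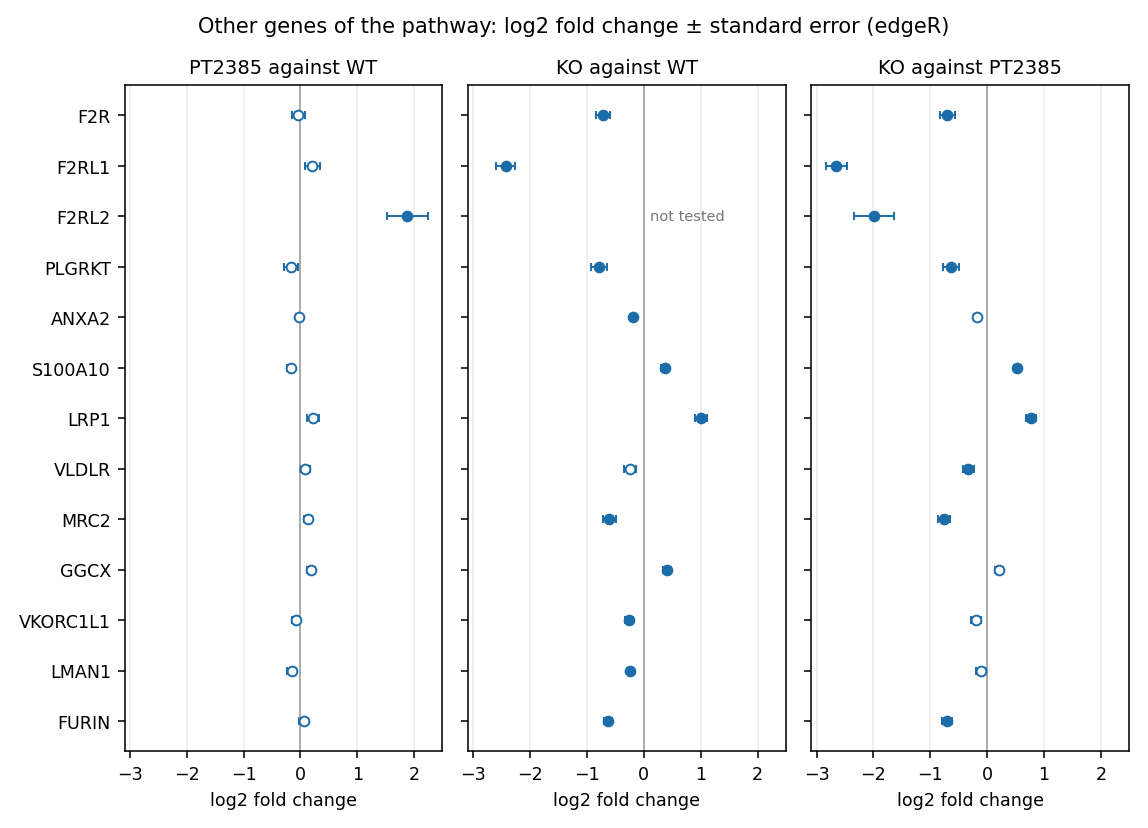
Log2 fold change (horizontal axis) with standard error for list genes named in the text that were called in at least 1 of the 3 comparisons. Filled points are called at an adjusted p under 0.05 in edgeR, and open points are not. F2RL2 could not be tested in KO against WT, and reached the filter elsewhere only through the PT2385 libraries. F2RL1 lies at -2.43 and -2.65 in the KO comparisons, and LRP1 at 1.01 and 0.77.

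Protease-activated receptors carry the signals of thrombin and of the tissue factor complex. F2RL1, the receptor PAR2 that is cleaved by the tissue factor complex and factor Xa, had 22.2, 27.8 and 23.7 CPM in WT, 24.6, 26.3 and 34.3 CPM with PT2385 and 3.56, 4.30 and 5.64 CPM in KO. It fell in KO against WT (log2 fold change -2.43, standard error 0.165, adjusted p = 1.23e-06) and against PT2385 (-2.65, standard error 0.184, adjusted p = 5.36e-06), with every KO library far below the rest. PT2385 libraries overlapped WT (0.21, standard error 0.130, adjusted p = 0.399). The thrombin receptor F2R had 17.5, 16.5 and 19.3 CPM in WT, 16.6, 15.8 and 19.5 CPM with PT2385 and 10.7, 11.7 and 9.57 CPM in KO, and it too fell in KO (log2 fold change -0.72, standard error 0.122, adjusted p = 0.00105 against WT). F2RL2, a thrombin receptor that acts as a cofactor, had few counts, 5, 12 and 6 in WT, 22, 34 and 40 with PT2385 and 5, 7 and 13 in KO. F2RL2 was higher with PT2385 than in WT (log2 fold change 1.88, standard error 0.358) and lower in KO than with PT2385 (-1.99, standard error 0.355). All PT2385 libraries lay above all others. The gene reached the low-count filter only through the PT2385 libraries, so its calls depend on that selection and its values are given as a description. F2RL3 did not exceed 3 counts. F3 and F2RL1 thus differed in where they were low, F3 in both groups and F2RL1 in KO.

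Inhibitors of fibrinolysis on the list included SERPINB6 and SERPINB8, which were tested and not called. With the replicate block SERPINB8 fell with PT2385 (log2 fold change -0.35, standard error 0.0912, adjusted p = 0.0174, against 0.0748 without the block), and it was also called without PT2385 replicate 3. SERPINB2 had 0, 0 and 1 counts in WT, 0, 0 and 1 with PT2385 and 8, 1 and 9 in KO, where replicate 2 again stood low. SERPINF2 and SERPINI1 had at most 9 and 11 counts.

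Plasminogen binds cells through several receptors, and 3 of them were on the list. PLGRKT fell against WT (11.6, 11.05 and 9.63 CPM in WT, 6.73, 5.62 and 6.12 CPM in KO, log2 fold change -0.79, standard error 0.145, adjusted p = 0.00174) and against PT2385 (-0.64, standard error 0.140, adjusted p = 0.00861). ANXA2 and S100A10 form the annexin A2 complex, and they went in opposite directions. S100A10 rose against WT (262, 255 and 226 CPM in WT, 318, 324 and 309 CPM in KO, log2 fold change 0.37, standard error 0.0682, adjusted p = 0.00189) and against PT2385 (0.52, standard error 0.0616, adjusted p = 2.05e-04). ANXA2 was lower by a small amount (813, 831 and 820 CPM in WT, 738, 705 and 692 CPM in KO, log2 fold change -0.19, standard error 0.0532, adjusted p = 0.0183), a call that was lost without WT replicate 1 (adjusted p = 0.0544) or WT replicate 2 (0.0727), with a range of 0.00741 to 0.0727 over the alternatives. With PT2385 none of the 3 was called, and with the replicate block S100A10 was (log2 fold change -0.17, standard error 0.0523, adjusted p = 0.0406), in the direction opposite to KO.

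Clearance receptors take up protease-inhibitor complexes and, for MRC2, collagen. LRP1, a receptor that internalizes urokinase in complex with its inhibitors, rose in KO against WT (104, 84.5 and 79.9 CPM in WT, 114, 104 and 95.7 CPM with PT2385, 187, 189 and 158 CPM in KO, log2 fold change 1.01, standard error 0.104, adjusted p = 3.16e-05) and against PT2385 (0.77, standard error 0.0914, adjusted p = 2.32e-04). Its exons overlap those of STAT6 on the opposite strand by 59 bases, and the strand setting of the counting is not given in the sources used here. MRC2, also known as the uPAR-associated protein, fell in KO against WT (159, 153 and 133 CPM in WT, 107, 104 and 78.2 CPM in KO, log2 fold change -0.61, standard error 0.113, adjusted p = 0.00192) and against PT2385 (-0.76, standard error 0.109, adjusted p = 7.01e-04). VLDLR was called only in KO against PT2385 (log2 fold change -0.33, standard error 0.0959, adjusted p = 0.0340), and lost the call when any library other than KO replicate 2 was left out, with adjusted p between 0.0596 and 0.147 in those fits and between 0.00761 and 0.147 over all alternatives. With the replicate block LRP1 also rose with PT2385 (log2 fold change 0.23, adjusted p = 0.0127), and without it LRP1 was not called there (adjusted p = 0.220).

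The list also held genes for maturation and export of clotting factors. GGCX, the vitamin K-dependent carboxylase, rose in KO against WT (62.3, 60.8 and 56.7 CPM in WT, 78.3, 82.3 and 76.2 CPM in KO, log2 fold change 0.41, standard error 0.0685, adjusted p = 9.53e-04), and its exons share 562 bases with MAT2A on the opposite strand, which had 32672 counts against 8209 for GGCX. FURIN, the proprotein convertase, fell (93.2, 95.8 and 94.5 CPM in WT, 63.3, 54.9 and 63.6 CPM in KO, log2 fold change -0.63, standard error 0.0712, adjusted p = 6.58e-05), and it also fell against PT2385 (-0.71, standard error 0.0928, adjusted p = 4.12e-04). LMAN1, a cargo receptor for factors V and VIII, was lower by -0.25 on the log2 scale (standard error 0.0539, adjusted p = 0.00475). VKORC1L1, a paralog of the vitamin K epoxide reductase, was lower by -0.26 (standard error 0.0722, adjusted p = 0.0190), and its call was lost without KO replicate 1 (adjusted p = 0.0827), KO replicate 2 (0.0597) or WT replicate 3 (0.0849), with a range of 0.00113 to 0.0849 over the alternatives. With PT2385 GGCX and MCFD2 were called only with the block (log2 fold changes 0.19 and 0.15, adjusted p = 0.0363 and 0.0475, against 0.132 and 0.224 without it).

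Many soluble factors of coagulation and fibrinolysis were not detected at this depth. F7, F9, F10, F5, the fibrinogen genes FGA, FGB and FGG, VWF and plasminogen itself (PLG) were among 16 list genes with 0 counts in all 9 libraries, and 0 counts allow up to 0.253 CPM in the smallest library. Another 9 had between 1 and 3 counts at most (F13A1, F13B, KLKB1, F2RL3, PROC, SERPINC1, SERPIND1, SERPINA5 and SERPINA10). F2, prothrombin, had at most 9 counts and was not tested. F8 and F12 were tested and not called in any comparison, with adjusted p of at least 0.0880. The same was so for the anticoagulant genes PROS1 and ADTRP, the latter a regulator of TFPI, with 3.36, 3.30 and 2.34 CPM in WT, 1.54, 2.02 and 2.10 CPM with PT2385 and 2.47, 1.53 and 1.86 CPM in KO (log2 fold changes -0.66, standard error 0.244, adjusted p = 0.138, and -0.61, standard error 0.257, adjusted p = 0.0976).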

How the data were processed

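RNA of 9 libraries was sequenced, and per the labels and the paper's methods FastQC, cutadapt, STAR on hg38 and featureCounts served for read quality, trimming, alignment and counting. Their versions, the annotation release and the strand setting are not given in the sources used here, so reads of overlapping genes cannot be told apart. The authors deposited raw gene counts in 9 columns that were not normalized, and the number of unmapped columns is 0. Groups and replicate numbers come from the sample titles. Of 58735 identifiers 58207 matched GENCODE release 44, which gave symbols, positions and merged exon lengths.

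Each pair of groups was fitted on its own with edgeR 4.0.16 in R 4.3.3 (TMM, filterByExpr with its minimum of 10 counts, quasi-likelihood F test, two-sided, Benjamini-Hochberg over all tested genes, threshold 0.05), a procedure tested on simulated data. For 3 replicates against 3, the smallest two-sided p of an exact permutation test is 0.1. CPM and per-kb levels used TMM factors. Medians, ratios and motif searches used Python 3.11.15. Promoter sequences came from RefSeq. A comparison of the proteins was planned and is not given.

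The 9 genes and the lists were chosen with earlier results of these data known. Named were these genes, EPAS1, list genes called in any comparison, the list genes at the floor, cell type markers and, for each chosen gene, those most similar in profile by Pearson's r of log2 CPM (prior count 2). For each, 3 are given. Other list genes named with values were chosen after these were seen. Replicate numbers were taken as pairs where deviations from the group means correlated above 0.1 for every number. This held for PT2385 with WT (r = 0.453, 0.137 and 0.431 over 10140 genes), where the pairing comes from the titles and this check.

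Alternatives were DESeq2 1.42.0, RLE and library size scaling, no filter, 10 counts or more in all libraries as the filter, the replicate block, all 9 libraries in 1 model and leaving out each replicate.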

Additional observations from a re-analysis of the deposited data

How the results depend on the processing

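Some counts of called genes moved by more than 1.5 times. For PT2385 against WT, 2305 genes were called with the replicate block and between 574 and 1451 with 1 replicate left out, and for KO against PT2385 between 1836 and 3190 with 1 left out. List genes called higher with PT2385 were 4 with the block and 0 with at least 10 counts in every library, a filter that F2RL2 does not pass (unadjusted p under 0.05 in edgeR for 3, and 1 called in DESeq2 on the genes of filterByExpr). List genes called lower with PT2385 were 4 with the block, 3 without a filter, between 1 and 2 with 1 replicate left out, and 0 with all 9 libraries in 1 model (4 at an unadjusted p under 0.05, 1 called in DESeq2), where the spread of the KO libraries enters. List genes higher in KO than with PT2385 were 4 with the block and 4 without a filter, for which the cause was not tested.

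For the chosen genes, 312 of 312 alternative fold changes stayed within the spread between replicates. Leaving out a single replicate can hardly move a fold change beyond that spread. The count was thus close to fixed in advance, and no stability is read from it. For list genes called in a comparison, 286 kept their side of the threshold and 11 lost it, and none changed sign. For PT2385 against WT the block changed no call of a named list gene besides those given with the results. KO libraries were not taken as paired, since replicate 2 stayed under the threshold of 0.1 (r = 0.319, 0.0560 and 0.481 with WT, 0.348, 0.0915 and 0.415 with PT2385). Replicates 1 and 3 were above it. For KO with WT 5 of 6 libraries were most similar to their own number, and for KO with PT2385 4 of 6. Whether KO shares handling with the other groups was not tested. With the replicate block 5501 genes were called in KO against WT and 3783 in KO against PT2385. The block added ANXA2, GGCX and VKORC1L1, among others, to the list genes called in KO against PT2385. Depth limits PLAT, F2RL2, THBD and SERPINB2, which had at most 65 counts in a library.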
